A study of Mus musculus with 2 samples.

Results

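The nuclear genes of respiratory complexes II to V, with cytochrome c, were examined in RNA sequencing of RAW264.7 cells, a mouse macrophage line derived from a leukaemia. Members were taken by gene symbol alone, as the Sdh, Sdhaf, Uqcr, Uqcc, Cyc1, Cycs, Cox and Atp5 names of the count table without its 12 pseudogene names ending in ps, and the rule uses no measured value. This gave 70 of the 56791 genes in the table. There were 8 for complex II, 15 for complex III, 1 for cytochrome c, 29 for complex IV and 17 for complex V. The study asked how FAPD10-exos, a particle preparation that the labels do not describe further, bear on M2 polarization, in which IL-4 drives macrophages into their alternative state. As the treatment text is understood, recombinant mouse IL-4 (20 ng, with no volume given) was present for 24 h in both wild-type cultures of this line, and FAPD10-exos (10000000 particles) were added at the same time to one of them. That one is called the treated library and the other the vehicle library. The line grows as a transformed culture, and each group was 1 library, so no difference below has a replicate check and none carries a p-value.

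Complexes II, III and IV pass electrons from succinate and ubiquinol through cytochrome c to oxygen, and complex V, the ATP synthase, makes ATP from the proton gradient that complexes III and IV help build. Most of their subunits are encoded in the nucleus, translated in the cytosol and imported, while a few are encoded by mitochondrial DNA, and assembly factors insert the copper, heme and iron-sulfur groups and join the pieces. IL-4-activated macrophages are known to rely on mitochondrial respiration more than macrophages activated by microbial products do.

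Totals were 37196241 counts in 20489 genes for the treated library and 36152743 counts in 21012 genes for the vehicle library, with scaling factors by the trimmed mean of M values (TMM) of 0.957 and 1.05. Levels are counts per 1000000 (CPM) on that scale, ratios are treated over vehicle, and ranges in parentheses are 95% exact Clopper-Pearson intervals, which cover counting error only. A gene was measured when its mean was at least 1 CPM and was called higher or lower at a difference of 1.5-fold or more whose interval lay on one side of 1. Of the macrophage markers, 9 of 10 were measured, among them Lyz2 at 1013 (treated) and 1110 CPM (vehicle) and Csf1r at 287 and 343 CPM, while Mertk had 0 and 2 counts. Adgre1, with a ratio of 2.91 (2.28 to 3.75), and Spi1, with 1.60 (1.54 to 1.66), were called higher, and Ptprc was called lower at 0.643 (0.624 to 0.662). The part of these differences in the results below was not tested. None of the 27 listed markers of fibroblasts, muscle, adipocytes, endothelium or epithelium reached 1 CPM, and the most abundant of them, Fabp4, had 34 and 36 counts. In bulk RNA, fewer cells expressing a gene and less of its RNA per cell cannot be told apart.

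As measured, before the length steps given below, nuclear respiratory genes were higher in the treated library as a group, in every complex. Of the 70 members, 65 had a count and 61 were measured, and 43 of these (70.5%) were called higher, against 17.1% of the 12264 measured genes. Cox10, which makes heme O for complex IV, was the only member called lower (1.64%), against 19.8% of measured genes. The other 17 lay between the thresholds. At 2-fold, 14 members (23.0%) were higher, against 4.19% of measured genes. The median log2 ratio of the members was 0.81, a ratio of 1.76, whereas that of all measured genes was 0.01. Ratios ran from 0.625 for Cox10 to 2.73 for Uqcc5, and the interval lay above 1 for 56 members, below 1 for 2 and across 1 for 3. Together the members took 363381 counts with FAPD10-exos and 242696 with vehicle, which is 0.977% (0.974 to 0.980) and 0.671% (0.669 to 0.674) of all counts. Summed, they stood at 10212 CPM with FAPD10-exos and 6422 CPM with vehicle, a ratio of 1.59 (1.58 to 1.60).

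The ratio moved with transcript length across the whole table, and most members are short. Over the 9966 measured protein-coding genes with a known principal transcript, the log2 ratio was lower the longer the transcript (Spearman's rho = -0.60), so that short mRNAs in general were higher in the treated library. The median principal transcript was 955 nt for the members and 2984 nt for all of these genes. In the first of 10 equal bins of exon length, up to 1030 nt, 40.8% were called higher, and so were 11 of the 13 members in it. After a running median over genes of like exon length in the table was subtracted, 24 of 61 members (39.3%) remained at least 1.5-fold higher, against 12.2% of measured genes, and 1, Cox10, was lower, against 16.3%. After the same step with the principal transcript length, added after seeing the data, 9 of 57 members (15.8%) were higher, against 10.2%, and Cox10 alone was lower, against 12.1%. The median log2 ratio was then 0.29, and 45 of 57 members (78.9%) lay above the running median. The size of the group difference therefore depended on how length was handled, more than on any other choice tried. The part of the length trend in the difference of single members was not tested beyond these values.

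**Figure D1:**
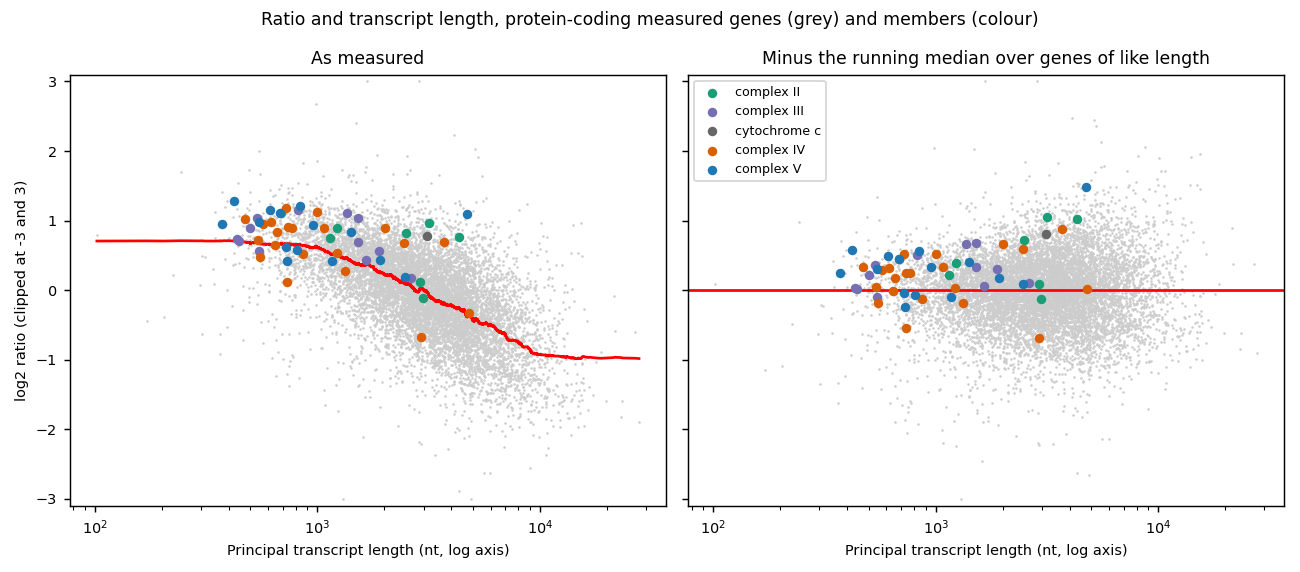
Log2 ratio (treated over vehicle, clipped at 3 in both directions) against principal transcript length in nt on a log axis, for measured protein-coding genes (grey) and the 57 members with a known transcript (coloured by complex), as measured (left) and after the running median (red line) was subtracted (right). The members sit around and above a red line that falls with length, and their median on the right is 0.29.

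The 9 members called higher against genes of like transcript length were Sdhc, Sdhaf1 and Sdhaf3 of complex II, Uqcrfs1 and Uqcrq of complex III, cytochrome c (Cycs), Cox16 and Cox17 of complex IV, and Atp5g1 of complex V. All 9 have transcripts longer than the members' median of 955 nt, such as Sdhc with 3171 nt, Cycs with 3123 nt and Atp5g1 with 4715 nt. Their log2 ratios above genes of like length were 1.05 for Sdhc, 0.81 for Cycs and 1.48 for Atp5g1. The principal transcript was the APPRIS principal one of GENCODE M21, and the longest where several ranked equally. It was looked up by gene symbol. The measured members Uqcc4, Uqcc5, Atp5pb and Atp5md found no match by symbol, so no result by transcript length covers them. The length of the principal transcript sets which genes a member is compared with, and which transcript these cells use was not examined. The part of this choice in the list was not tested.

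Several members share promoter letters that the factors NRF-1 and GABPA bind, and since both are known to control nuclear respiratory genes, a few are shown, chosen with their ratios known. A window from 250 bases before to 50 after the gene start was present in the RefSeq promoter table (GRCm38.p6) for 51 members, 47 of them measured. The letters searched on both strands were GCGCATGCG for NRF-1, CCGGAAG for GABPA and AAGATGGCG for YY1. None of them lies within another, although their ends can share up to 3 letters. The NRF-1 letters were found in 7 of the 47 members (14.9%), in 4.56% of 8506 measured genes and in 1.95% of all 27025 genes with a window. The GABPA letters were found in 21 members (44.7%), in 22.8% of measured genes and in 9.93% of all genes with a window. The YY1 letters were found in 3 members (6.38%), against 4.16% and 1.64%. At least one of the 3 was in 25 members (53.2%), against 29.2% of measured genes and 12.7% of all genes with a window. A match describes the letters only.

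Below are the 100 bases before the gene start of 3 members with the NRF-1 letters, chosen to span cytochrome c, a small subunit and a c-ring gene of complex V. Each is written 5′ to 3′ on the minus strand that carries the gene, with the match in capitals, and both matches where those on either strand overlap. The Cycs window is chr6:50566570-50566669, that of Atp5k is chr5:108434400-108434499 and that of Atp5g2 is chr15:102671048-102671147.
Cycs: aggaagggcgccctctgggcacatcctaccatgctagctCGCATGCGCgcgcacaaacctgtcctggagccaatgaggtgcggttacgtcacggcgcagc
Atp5k: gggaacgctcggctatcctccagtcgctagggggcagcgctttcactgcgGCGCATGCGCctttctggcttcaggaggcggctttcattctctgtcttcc
Atp5g2: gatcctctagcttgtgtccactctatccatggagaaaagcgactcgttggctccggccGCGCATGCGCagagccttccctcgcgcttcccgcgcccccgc
The first capital lay 61 bases before the start in Cycs, 50 in Atp5k and 42 in Atp5g2. The ratio was 1.71 for Cycs, 1.93 for Atp5k and 1.34 for Atp5g2, so the same letters stood before genes with unequal ratios.

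The next 6 carry the GABPA letters in capitals, on either strand, and were chosen to span complexes II to V and to include Cox10, the member called lower. They are chr11:115419920-115420019 for Atp5h, chr9:50603850-50603949 for Sdhd, chr7:30626115-30626214 for Cox6b1, chr4:116075071-116075170 for Uqcrh, chr11:64079473-64079572 for Cox10 and chr16:84834977-84835076 for Atp5j, all with the gene on the minus strand.
Atp5h: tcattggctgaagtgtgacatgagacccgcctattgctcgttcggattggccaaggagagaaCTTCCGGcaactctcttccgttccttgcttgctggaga
Sdhd: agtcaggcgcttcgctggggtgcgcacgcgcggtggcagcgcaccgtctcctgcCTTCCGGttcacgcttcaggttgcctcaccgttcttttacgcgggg
Cox6b1: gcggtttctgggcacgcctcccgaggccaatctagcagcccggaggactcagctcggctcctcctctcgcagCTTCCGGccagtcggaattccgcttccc
Uqcrh: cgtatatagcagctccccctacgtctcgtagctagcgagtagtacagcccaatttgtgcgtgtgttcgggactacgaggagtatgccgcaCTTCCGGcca
Cox10: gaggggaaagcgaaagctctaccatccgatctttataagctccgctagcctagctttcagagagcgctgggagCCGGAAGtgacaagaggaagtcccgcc
Atp5j: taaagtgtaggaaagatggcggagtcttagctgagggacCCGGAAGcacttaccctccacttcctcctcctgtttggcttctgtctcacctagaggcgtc
The ratio was 2.15 for Atp5h, 1.86 for Sdhd, 1.96 for Cox6b1, 1.48 for Uqcrh, 1.49 for Atp5j and 0.625 for Cox10. Cox10 and Atp5j also hold the YY1 letters in the searched window, as does Atp5j2, a small subunit of complex V. Members with and without a motif overlapped in ratio. The median log2 ratio was 0.77 in the 7 with and 0.83 in the 40 without the NRF-1 letters, and 0.89 in the 21 with and 0.76 in the 26 without the GABPA letters. For the YY1 letters it was 0.58 in the 3 with, of which 1 was called higher, and 0.83 in the 44 without.

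The transcripts of the factors were measured as well. Nrf1 had 2121 counts with FAPD10-exos and 1398 with vehicle, a ratio of 1.61 (1.51 to 1.73), and was called higher. Gabpa, which encodes the DNA-binding subunit of its factor, had 2284 and 3845 counts, a ratio of 0.631 (0.599 to 0.665), and was called lower. Its gene lies beside Atp5j, with which it shares 12.7% of the exon length of Atp5j in the table. Tfam, which packages and transcribes mitochondrial DNA, had a ratio of 1.45 (1.38 to 1.52). The receptor Esrra had a ratio of 1.42 (1.22 to 1.66), the coactivator Ppargc1b one of 0.818 (0.748 to 0.893), and its relative Ppargc1a had 2 counts in each library. Against genes of like transcript length neither Nrf1, at 0.42 on the log2 scale, nor Gabpa, at -0.23, was past 1.5-fold. Tfam, at 0.79, was the only regulator called.

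**Figure D2:**
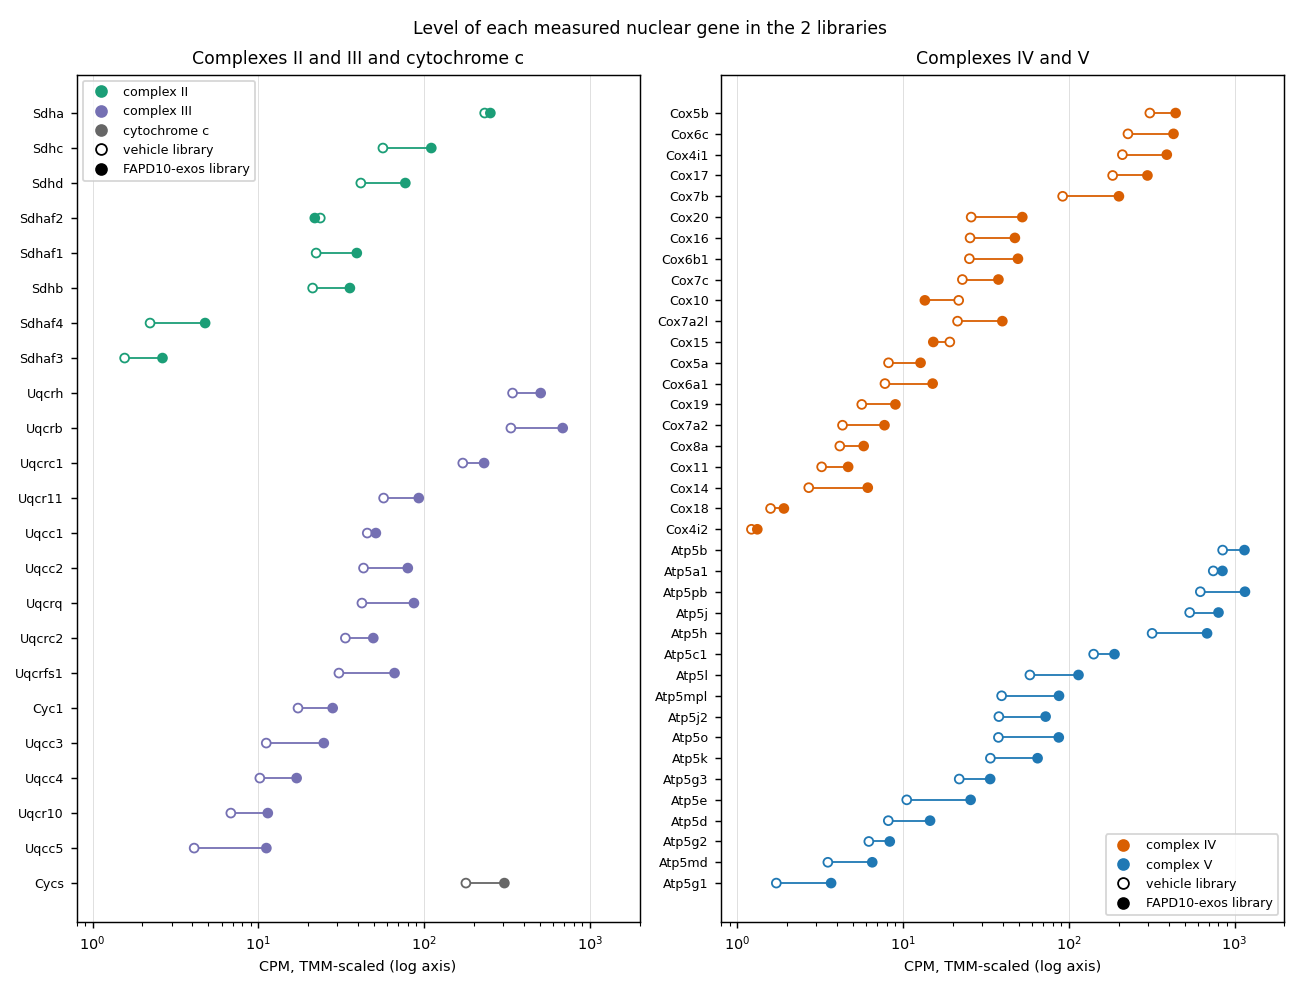
Level of each of the 61 measured members in CPM (TMM-scaled, log axis), with open points for the vehicle and filled points for the treated library, coloured by complex. The filled point lies to the right for all but Sdhaf2, Cox10 and Cox15, at levels from about those of Cox4i2 (1.32 and 1.22 CPM) to those of Atp5pb (1156 and 622 CPM).

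Complex II is succinate dehydrogenase, which also catalyses a step of the TCA cycle, and its catalytic subunit had a lower ratio than the other 3 as measured. Sdha, the flavoprotein that holds the succinate site, had 8940 counts with FAPD10-exos and 8774 with vehicle, a ratio of 1.08 (1.05 to 1.11). Sdhb, the iron-sulfur subunit, had 1270 and 804 counts, a ratio of 1.68 (1.54 to 1.83). The membrane anchors that bind ubiquinone were both nearer 2-fold, with 3936 and 2134 counts for Sdhc, a ratio of 1.96 (1.86 to 2.07), and 2744 and 1570 for Sdhd, a ratio of 1.86 (1.74 to 1.98). The intervals of Sdhb, Sdhc and Sdhd did not overlap that of Sdha, but against genes of like transcript length those of Sdhb, at 0.22 on the log2 scale, and Sdha, at 0.09, did. Since Sdha has the highest level of the 4, the counts summed over the complex gave a ratio of 1.35 (1.33 to 1.38), below the median of its members, 1.73. Of the 8 members of complex II, 6 (75%) were called higher, beside 17.1% of all measured genes. Against genes of like transcript length 3 (37.5%) were, beside 10.2%.

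Of the 4 complex II assembly factors, 3 were called higher. Sdhaf1, which helps place the iron-sulfur groups of Sdhb, had 1398 and 844 counts, a ratio of 1.76 (1.61 to 1.92). Sdhaf4, which binds flavinylated Sdha, had 170 and 84 counts, a ratio of 2.15 (1.65 to 2.83). Sdhaf3, a partner of Sdhaf1, had 94 and 59 counts, a ratio of 1.69 (1.21 to 2.39). Sdhaf2, which attaches the flavin to Sdha, had 780 and 894 counts, and its ratio of 0.927 (0.841 to 1.02) did not differ from 1 beyond counting error. Sdha and the factor that flavinylates it were thus the complex II members with the lowest ratios.

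In complex III, the cytochrome bc1 complex, 10 of 14 measured members (71.4%) were called higher, beside 17.1% of all measured genes, and none lower. The median log2 ratio was 0.74. Against genes of like transcript length 2 of 12 (16.7%) were higher, beside 10.2%. Both redox subunits were higher. Uqcrfs1, the Rieske iron-sulfur protein that is inserted late in assembly, had 2362 counts with FAPD10-exos and 1158 with vehicle, a ratio of 2.17 (2.02 to 2.33). Cyc1, cytochrome c1, had 1000 and 656 counts, a ratio of 1.62 (1.47 to 1.79). The core proteins stayed below the threshold, with 8195 and 6472 counts for Uqcrc1, a ratio of 1.34 (1.30 to 1.39), and 1758 and 1267 for Uqcrc2, a ratio of 1.47 (1.37 to 1.58). Neither core interval overlapped that of Uqcrfs1. The interval of Cyc1 lay above that of Uqcrc1 but overlapped that of Uqcrc2. Against genes of like transcript length, Cyc1 stood at 0.33 and Uqcrc2 at 0.30 on the log2 scale.

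The small subunits of complex III had unequal ratios. Uqcrb, near the ubiquinone site, had 24431 and 12628 counts, a ratio of 2.05 (2.01 to 2.10), and Uqcrq had 3092 and 1594, a ratio of 2.06 (1.94 to 2.19). Uqcr10 had 406 and 258 counts, a ratio of 1.67 (1.43 to 1.96), and Uqcr11 had 3307 and 2155, a ratio of 1.63 (1.54 to 1.72). Uqcrh, the acidic hinge protein that contacts cytochrome c1, had 17989 and 12924 counts, a ratio of 1.48 (1.44 to 1.51). Uqcrb and Uqcrq were therefore higher than the other 3 beyond counting error, except that the upper bound of Uqcr10 passed the lower bound of Uqcrq. Uqcrb has near copies in 4 other annotated genes, at least 90% identical over at least 50% of its transcript, between which the counting could divide reads.

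The complex III assembly factors held the largest ratio among all measured members. Uqcc5 had 398 counts with FAPD10-exos and 155 with vehicle, a ratio of 2.73 (2.26 to 3.30). Uqcc3 had 884 and 422 counts, a ratio of 2.22 (1.98 to 2.504), Uqcc2, which acts with Uqcc1 in cytochrome b synthesis, had 2839 and 1630, a ratio of 1.85 (1.74 to 1.97), and Uqcc4 had 606 and 386, a ratio of 1.67 (1.46 to 1.90). Uqcc1 had 1822 and 1717 counts, a ratio of 1.13 (1.05 to 1.20), with an interval apart from that of its partner Uqcc2. With either length step those intervals overlapped, at log2 ratios of 0.11 for Uqcc1 and 0.22 for Uqcc2 against genes of like transcript length. Uqcc6 had 13 and 9 counts and was not measured. Cycs, the soluble cytochrome c that carries electrons from complex III to complex IV, had 10864 and 6759 counts, a ratio of 1.71 (1.66 to 1.76).

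Complex IV, cytochrome c oxidase, had 29 members by name, of which 24 had a count and 21 were measured. Of these, 14 (66.7%) were called higher and 1 (4.76%) lower, beside 17.1% and 19.8% of all measured genes, at a median log2 ratio of 0.72. Against genes of like transcript length 2 of the 21 (9.52%) were higher, beside 10.2% of all genes. The general isoforms of the structural subunits were all measured, and 8 of 10 were called higher. Cox4i1, the largest nuclear subunit, had 13888 counts with FAPD10-exos and 7960 with vehicle, a ratio of 1.85 (1.80 to 1.91). Cox6c had 15249 and 8599, a ratio of 1.88 (1.83 to 1.93), and Cox7b had 7143 and 3471, a ratio of 2.19 (2.10 to 2.28), the largest among the subunits of this complex. Cox6a1 had 537 and 294 counts, a ratio of 1.94 (1.68 to 2.24), and Cox6b1, which faces the intermembrane space, had 1756 and 950, a ratio of 1.96 (1.81 to 2.13).

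The other general subunits were closer to the threshold. Cox7a2 had 275 and 163 counts, a ratio of 1.79 (1.47 to 2.19), Cox7c had 1339 and 862, a ratio of 1.65 (1.51 to 1.80), and Cox5a had 454 and 309, a ratio of 1.56 (1.35 to 1.81). The 2 that were not called were Cox5b, a zinc-binding subunit with 15702 and 11655 counts and a ratio of 1.43 (1.40 to 1.47), and Cox8a with 206 and 157 counts and a ratio of 1.39 (1.13 to 1.73). Both intervals lay above 1. Cox7a2l, which joins complexes III and IV in supercomplexes, had 1414 and 806 counts, a ratio of 1.86 (1.71 to 2.03), close to those of Cox4i1 and Cox6c.

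The tissue isoforms of complex IV were at or near the limit of detection. Cox4i2, the isoform known from lung, had 47 and 46 counts, and Cox4i1 made up 99.6% of the level of this pair per length of transcript with FAPD10-exos and 99.4% with vehicle. The muscle isoforms Cox6a2 and Cox7a1 had 6 and 12 and 22 and 22 counts, and Cox6a1 took 99.1% and 96.7% of the level of its pair on the same scale. Cox6b2, Cox7b2, Cox8b, Cox8c and the further copy Cox20b had 0 counts in both libraries, which allows up to 0.0843 CPM with FAPD10-exos and 0.0794 CPM with vehicle. Cox6c2, a further copy of Cox6c, had 28 and 14 counts. In the Cox7a set, Cox7a1 made up 3.13% and 5.32% of the level, Cox7a2 23.3% and 23.5%, and Cox7a2l the rest.

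The complex IV assembly factors were split. Of 9 measured, 5 were called higher and 1 lower, and the SD of their log2 ratios was 0.62, compared with 0.21 for the 10 general subunits. Cox10, which farnesylates heme, had 482 counts with FAPD10-exos and 819 with vehicle, a ratio of 0.625 (0.557 to 0.700). Cox15, which turns the product of Cox10 into heme A, had 542 and 724 counts, a ratio of 0.795 (0.710 to 0.890), with an interval below 1 but not past the fold threshold. These genes of heme A synthesis were the only members with a whole interval below 1. Against genes of like transcript length the log2 ratio of Cox10 was still -0.70, whereas that of Cox15, with a transcript of 4798 nt, was 0.02.

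Of the members that handle copper, 2 were called higher. Cox17, the copper chaperone of the intermembrane space, had 10614 and 6952 counts, a ratio of 1.62 (1.57 to 1.67), and it stood 0.88 on the log2 scale above genes of like transcript length. Cox19 had 320 and 213 counts, a ratio of 1.60 (1.34 to 1.91). Cox11, which helps form the copper B site, had 166 and 122 counts, a ratio of 1.45 (1.14 to 1.84), and shares 48.3% of its exon length with Tom1l1. The log2 ratio of Cox11 against genes of like transcript length was 0.03.

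The remaining factors act early in assembly around the mitochondrially encoded subunits. Cox14, needed for translation and assembly of subunit 1, had 218 and 102 counts, a ratio of 2.27 (1.79 to 2.90). Cox20, a chaperone of subunit 2, had 1866 and 974 counts, a ratio of 2.03 (1.88 to 2.20), and Cox16 had 1683 and 959, a ratio of 1.86 (1.72 to 2.02). The counts of these last are uncertain, because Cox20 shares 91.1% of its exon length with Hnrnpu and Cox16 56.8% with a predicted gene. Cox18, which moves the tail of subunit 2 across the membrane, had 68 and 60 counts, and its ratio of 1.20 (0.838 to 1.73) could not be told from 1 at this depth.

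**Figure D3:**
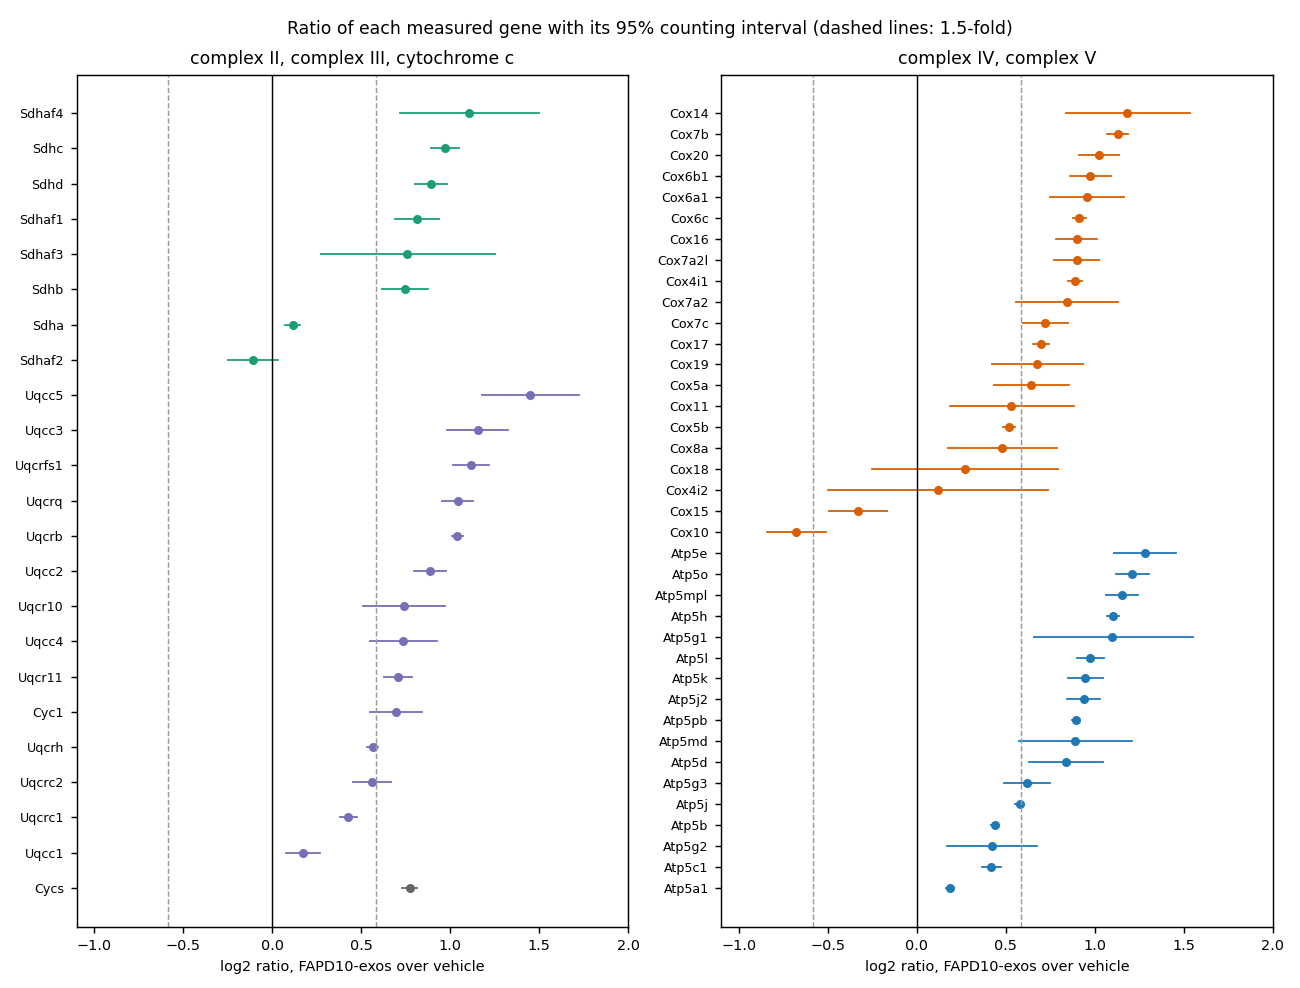
Log2 ratio (treated over vehicle) of the 61 measured members by complex, with horizontal bars for the 95% counting interval, a solid line at 0 and dashed lines at 1.5-fold. Only Cox10 lies past the lower dashed line, and Uqcc5 lies farthest to the right at 1.45.

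Complex V contributed more than any other complex to the summed level, with 5341 CPM under FAPD10-exos and 3469 CPM under vehicle. Of its 17 members, all measured, 12 (70.6%) were called higher, beside 17.1% of all measured genes, and none lower. Against genes of like transcript length 1 of 15 (6.67%) was higher, beside 10.2%. The median log2 ratio as measured was 0.89, but the ratios differed by position in the enzyme. The F1 part held both the smallest and the largest. Atp5a1, the alpha subunit, had 30098 and 28131 counts, a ratio of 1.14 (1.12 to 1.16), and Atp5b, the catalytic beta subunit, had 40873 and 32044, a ratio of 1.35 (1.33 to 1.38). The gamma subunit Atp5c1, the rotating shaft, had 6716 and 5340 counts, a ratio of 1.34 (1.29 to 1.38). The small subunits of the central stalk were higher, with 518 and 308 counts for Atp5d (delta), a ratio of 1.79 (1.55 to 2.06), and 910 and 398 for Atp5e (epsilon), a ratio of 2.43 (2.16 to 2.74).

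The peripheral stalk, which holds the head still against the rotor, was higher in 3 of 4 members. Atp5pb (subunit b) had 41145 counts with FAPD10-exos and 23507 with vehicle, a ratio of 1.86 (1.83 to 1.89), and Atp5h (subunit d) had 24300 and 12029, a ratio of 2.15 (2.10 to 2.19). Atp5o, the oligomycin-sensitivity subunit, had 3097 and 1422 counts, a ratio of 2.31 (2.17 to 2.46), but 43.8% of its exon length lies within exons of Gm15976, D430001F17Rik or Donson. Atp5j (F6) had 28482 and 20269 counts, and its ratio of 1.49 (1.47 to 1.52) fell just under the threshold. As measured, all 4 exceeded the alpha, beta and gamma subunits beyond counting error. This did not hold for Atp5j against genes of like transcript length, where its log2 ratio was -0.07, below those of Atp5a1 at 0.09 and Atp5b at 0.17. Atp5c1 stood at -0.10 on that scale. Atp5h, at 0.44, and Atp5o, at 0.56, stood above the alpha, beta and gamma subunits there, and Atp5pb has no such value.

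All 5 small membrane subunits were called higher, within a narrow range. Atp5j2 (subunit f) had 2579 and 1431 counts, a ratio of 1.91 (1.79 to 2.04). The subunits that join ATP synthase into dimers, Atp5k (subunit e) and Atp5l (subunit g), had 2307 and 1272 counts, a ratio of 1.93 (1.80 to 2.06), and 4073 and 2202 counts, a ratio of 1.96 (1.86 to 2.07). Atp5md had 232 and 133 counts, a ratio of 1.85 (1.49 to 2.31), and Atp5mpl had 3107 and 1487, a ratio of 2.22 (2.09 to 2.36). Their log2 ratios had an SD of 0.10, the smallest of any role with at least 3 measured members. Against genes of like transcript length none of the 4 with a known transcript was past 1.5-fold, at a median of 0.32. Atp5l has near copies in 13 other annotated genes, Atp5h in 5 and Atp5k in 1, so their counts are uncertain.

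The c-ring is built from identical proteins made by 3 genes that differ in their import sequences. Atp5g3 gave most of their level per length of transcript, 79.2% with FAPD10-exos and 77.3% with vehicle, with 1194 and 825 counts and a ratio of 1.54 (1.40 to 1.68). Atp5g2 had 296 and 235 counts, a ratio of 1.34 (1.12 to 1.59), and its share was 19.4% and 21.8%. Atp5g1 had 131 and 65 counts and a ratio of 2.14 (1.58 to 2.93), at a share of 1.33% and 0.934%. The copy with the smallest share thus had the largest ratio of the 3. Its share rests on a principal transcript of 4715 nt, against 731 nt for Atp5g2 and 723 nt for Atp5g3. Which transcripts these cells use was not examined.

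**Figure D4:**
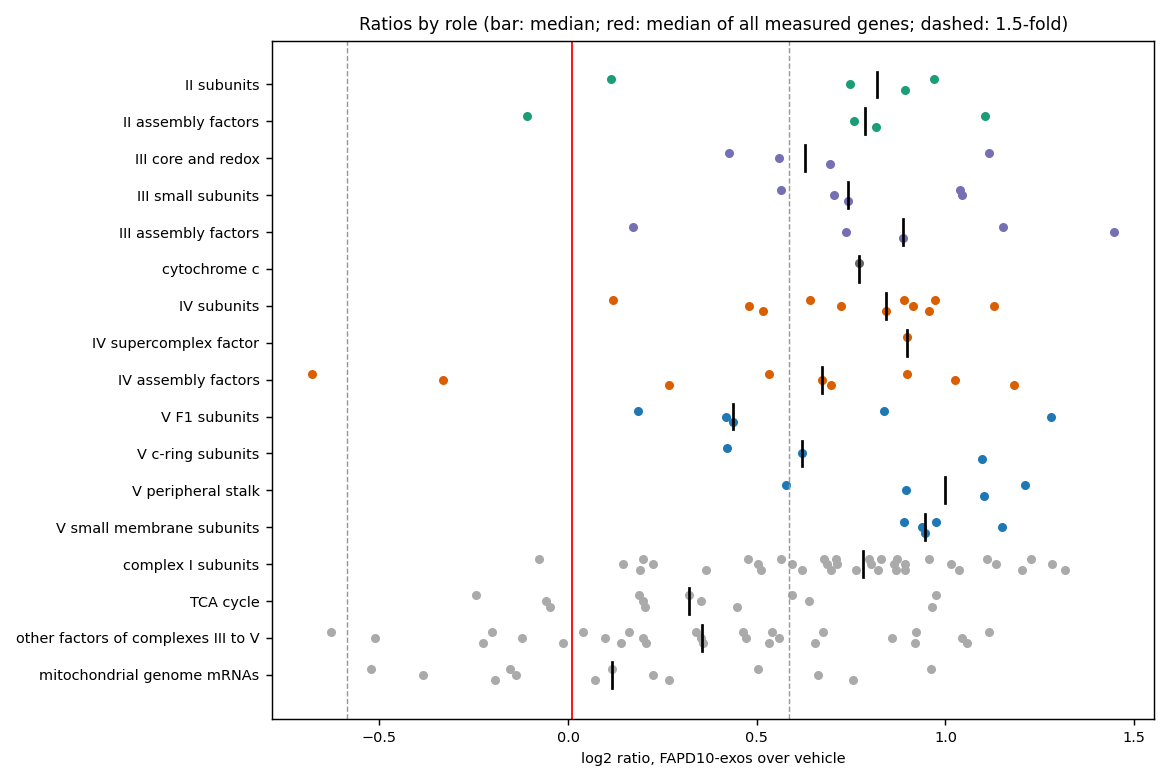
Log2 ratio (treated over vehicle) of every measured member by role, with comparison lists in grey, a black bar for the median of each row, a red line for the median of all measured genes (0.01) and dashed lines at 1.5-fold. As measured, the F1 subunits have the lowest median among roles with at least 3 measured members (against genes of like transcript length the c-ring subunits do, at -0.04), and the small membrane subunits of complex V cluster tightly.

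Structural subunits and assembly factors had similar medians but unequal spread. Of 41 measured subunits, 29 were called higher and none lower, at a median log2 ratio of 0.84 and an SD of 0.30. Of 18 measured assembly factors, 12 were called higher and 1 lower, at a median of 0.75 and an SD of 0.56. The level of a member said little about its ratio (rho = 0.03 over 61 members, a description across genes that share both libraries). Among the members, the rank correlation of the ratio with principal transcript length was weaker (rho = -0.37 over 57 members) than over all protein-coding genes (-0.60). No slope was computed.

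Levels per kilobase of principal transcript spanned a wide range, in nearly the same order in both libraries (rho = 0.99 over 61 members by exon length). The ranking covers the 57 members with a known principal transcript. It leaves out Atp5pb, which had 1156 and 622 CPM and whose place in it is not known. Among the 57, Uqcrb had the highest mean, with 1283 CPM per kb under FAPD10-exos and 625 under vehicle, followed by Atp5j with 989 and 663, Uqcrh with 924 and 625, and Atp5h with 1001 and 467. Atp5b came next, at 600 and 443. The order of Uqcrb, Uqcrh, Atp5j and Atp5h differed between the libraries. With vehicle, Uqcrb and Uqcrh could not be told apart at this rounding. At the other end were Sdhaf3 with 0.611 and 0.361 and Atp5g1 with 0.781 and 0.365 CPM per kb.

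The mitochondrially encoded partners of these proteins were not shifted alike. Of the 13 mRNAs of mitochondrial DNA, all measured, 3 (23.1%) were called higher and none lower, beside 17.1% and 19.8% of all measured genes. Their median log2 ratio was 0.12. Against protein-coding genes of like transcript length 5 of 13 were lower and none higher, beside 12.1% and 10.2%, with a median of -0.49. In complex III, mt-Cytb, cytochrome b, had 24278 counts with FAPD10-exos and 37044 with vehicle, a ratio of 0.696 (0.685 to 0.707), while 10 of 14 nuclear members were higher. In complex IV, mt-Co1 had 19170 and 23293 counts, a ratio of 0.874 (0.857 to 0.891), mt-Co2 had 450 and 532, a ratio of 0.898 (0.791 to 1.02), and mt-Co3 had only 44 and 40. In complex V, mt-Atp6 had 1601 and 873 counts, a ratio of 1.95 (1.79 to 2.12), and mt-Atp8 had 57 and 79, a ratio of 0.766 (0.535 to 1.09). The treatment of reads that match several places can set the level of mitochondrial mRNAs, and no source used here gives it.

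Complex I, which passes electrons from NADH into the same chain, had values close to those of complexes II to V. Of its 36 nuclear subunits, all measured, 26 (72.2%) were called higher and none lower, beside 17.1% and 19.8% of all measured genes. Their median log2 ratio was 0.78, and ratios ran from 0.948 for Ndufs1 to 2.49 for Ndufb10. Against genes of like transcript length the median was 0.20, and 4 (11.1%) were higher, close to the 10.2% of all genes. The members had 0.29 and 9 of 57 (15.8%). Complexes II to V were thus not set apart from complex I by these values. Of the 13 TCA cycle enzymes, 4 (30.8%) were higher, beside 17.1% of all measured genes, and 1 (7.69%) against genes of like transcript length, beside 10.2%. Their median was 0.32 as measured and 0.18 after that step, and ratios ran from Suclg2 with 0.845 (0.788 to 0.905) to Mdh2 with 1.97 (1.91 to 2.02).

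Other factors of complexes III to V that carry different gene names had a lower median, 0.35, with 8 of 28 measured (28.6%) called higher and 1 (3.57%) lower, beside 17.1% and 19.8% of all measured genes. Against genes of like transcript length the median was 0.07 and 1 (3.57%) was higher, beside 10.2%. Cmc2, a complex IV factor, was highest with 757 and 371 counts and a ratio of 2.17 (1.91 to 2.46), and Pet117, which takes part in heme A synthesis with Cox15, was lowest with 1376 and 2257 counts and a ratio of 0.647 (0.605 to 0.693). Chosen after their values were seen, Ndufa4, now counted as a subunit of complex IV, had a ratio of 2.08 (1.89 to 2.29), and Atpif1, the inhibitor of ATP synthase, had 29927 and 17525 counts and a ratio of 1.81 (1.78 to 1.85). Surf1, which also acts in heme A insertion, had a ratio of 1.60 (1.38 to 1.84), so the genes around heme A did not all lie below 1.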

How the data were processed

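Libraries were made from TRIzol-extracted total RNA, per the labels, with the mRNA selection not given in the sources used here. The authors deposited 1 table of raw counts per gene for both libraries, in the layout of featureCounts per the file headers. Reads passed through fastp 0.23.4, STAR 2.5.3a and featureCounts per the submitters' processing notes, which name the human build GRCh38 although the symbols are mouse. The actual build, the annotation, the strand setting and the rule for reads with several matches were not given in the sources used here, and therefore no coordinate of the table is printed, and reads of overlapping or antisense genes cannot be told apart. The counts of members that share over 20% of exon length with other genes (4 measured: Cox11, Cox16, Cox20 and Atp5o) are uncertain. A near copy means at least 90% identity over at least 50% of the GENCODE M21 principal transcript by blastn 2.17.0. Near copies were found in 12 of 57 measured members searched, whose counts are uncertain too. They are Uqcc2, Uqcrb, Cox5a, Cox6a1, Cox7c, Cox20, Atp5c1, Atp5g2, Atp5h, Atp5k, Atp5l and Atp5o. Not every passage above repeats this caution.

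With 1 library per group edgeR's quasi-likelihood test has no residual degrees of freedom, so no p-value was computed. Counts were divided by TMM-scaled library sizes (edgeR 4.0.16, R 4.3.3). Ratios, intervals and lists were computed in Python 3.11.15 with scipy 1.17.1. Among low counts, up to 50, 76.3% (treated) and 75.1% (vehicle) were even numbers, as counting each end of a pair would give. With counts halved, 43 members were still called higher. The length steps subtracted a running median over 501 genes. The intervals and calls were tested on simulated counts that held no variation between cultures and no length trend. That test therefore does not cover the length steps. Every member is described, in full with at least 100 counts over both libraries and by its counts otherwise. Of other genes, the highest and lowest of each comparison list with 100 counts, 6 regulators and cell type markers were named. The members and lists were chosen with earlier results of these data known. Alternatives were other scalings (total counts, DESeq2 1.42.0, upper quartile), filters, fold thresholds, summaries and length steps. A RefSeq promoter was found for 51 of 70 members.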

Additional observations from a re-analysis of the deposited data

How the results depend on the processing

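Each group had 1 library, so leaving out replicates was not possible. No paired analysis was possible because each group has 1 library. The medians below are log2 ratios, reported as 0.81 for all members, 0.79 for complex II, 0.74 for III, 0.72 for IV and 0.89 for V. Scaling by total counts shifted the median of all measured genes by -0.13 and gave 0.69 for all members, 0.59 for IV and 0.77 for V. For complex V, DESeq2's size factors gave 0.85, the upper quartile 0.96 and a mean over genes 0.82. A filter at 10 CPM gave 0.89 for IV. Pooled counts gave 0.67 for all members, 0.44 for II and 0.62 for V. Subtracting the trend with exon length left 24 members higher and medians of 0.50 for all, 0.42 for III, 0.49 for IV and 0.62 for V. Subtracting the trend with principal transcript length, chosen after seeing the data, left 9 of 57 higher and medians of 0.29 for all, 0.42 for II, 0.26 for III, 0.24 for IV and 0.30 for V. That step turned the sign of 11 of 57 members (3 of 61 with exon length, 2 with total counts), among them the called Atp5g3, to -0.041, and Cox5a, to -0.019. Uqcrh at -0.10, Cox5b at -0.12, Atp5c1 at -0.10 and Atp5j at -0.07 turned with the whole interval below 0. At 2-fold, 14 members were higher and 0 lower, and with no fold threshold 2 were lower, Cox10 and Cox15. The number called higher was 37 with total counts, 42 with DESeq2's size factors, 47 with the upper quartile, 44 with no filter, 34 of 47 at 10 CPM, 40 of 57 without overlapping genes and, chosen after seeing the data, 33 of 49 without near copies. All values of the complex medians stayed above 0 in the settings run.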

Other observations

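Of the 12 pseudogene names left out of the members, 9 had a count and 2 were measured. Atp5pb-ps had 580 counts with FAPD10-exos and 372 with vehicle, a ratio of 1.66 (1.45 to 1.89), and Cox5b-ps had 138 and 88, a ratio of 1.67 (1.27 to 2.20). The genes they are named for had ratios of 1.86 and 1.43. Over the 57 members searched, those with more near copies had somewhat higher levels per kilobase (rho = 0.29) and ratios (rho = 0.18), which describes genes of the same libraries only.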
